A study of Mus musculus with 4 samples.

Results

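Interleukin-2 (IL-2) and 7 receptor chains for IL-2 and its relatives were followed in induced regulatory T cells (induced Treg cells). The 8 genes were taken by symbol from a fixed list, and Il2, Il2ra, Il2rb, Il2rg, Il4ra, Il7r, Il21r and Il15ra were each found in 1 row of both deposited gene tables, among 22120 symbols that the tables shared. All 8 were among the 10587 genes with a mean of at least 1 FPKM (a fragment count corrected for transcript length and library size). The cells came from naive T cells of C57BL/6 mice and were grown for 3 days on plates coated with antibodies against CD3 and CD28 (1 µg/ml) in the presence of TGF-beta at 2 ng/ml, the cytokine that induces the Treg factor Foxp3. There were 2 libraries labelled MSC KO and 2 labelled WT, MSC being musculin, a transcription factor of the basic helix-loop-helix family. Neither the targeted part of Msc, nor the cells in which it was lost, nor whether separate animals or cultures gave the replicates is stated in the labels, so p-values cover the spread between these samples alone and that spread may be technical.

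IL-2 is the growth factor that activated T cells secrete. It signals through a complex of an alpha chain (CD25, encoded by Il2ra), a beta chain (Il2rb) and the common gamma chain (Il2rg). The gamma chain also serves IL-4, IL-7, IL-9, IL-15 and IL-21, in complexes with other chains. The kinases JAK1 and JAK3 sit on these chains and activate STAT5, or STAT6 for IL-4 and STAT3 for IL-21. Treg cells are known for high CD25 and for little IL-2 of their own, as Foxp3 represses Il2, so that they depend on IL-2 from other cells.

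The tables give no read totals, and depth, read from the smallest steps that separate low values, came to about 28300000 and 35900000 fragments in the libraries labelled MSC KO and 25800000 and 36300000 in those labelled WT. Msc itself went against the labels, at 0.331 and 0.939 FPKM in the libraries labelled MSC KO against 0.0243 and 0.0178 FPKM in those labelled WT, so every direction is given for the libraries as labelled. Foxp3, the factor that defines Treg cells, was at 2.97 and 7.05 FPKM in the libraries labelled MSC KO, against 62.8 and 65.95 FPKM in those labelled WT, and its part in the values below was not tested. The WT libraries lay closer to each other than the MSC KO-labelled ones did: without small RNA genes, the SD across genes of the log2 difference between replicates was 0.43 for MSC KO and 0.17 for WT. In genes with 1 annotated transcript the WT pair still differed by more than counting error, with a mean chi-square of 110 between the MSC KO-labelled libraries and 3.52 between the WT libraries where counting error gives 1. T cell markers (8 of 8 measured) summed to 1738 and 1611 FPKM in MSC KO-labelled and 1706 and 1754 FPKM in WT libraries, while markers of myeloid and dendritic cells (8 genes) summed to 4.43 and 4.19 FPKM in MSC KO-labelled and 1.96 and 1.7 FPKM in WT libraries, mostly from Cd68. Of those 8, 7 were under 1 FPKM in each library, as were 5 of 6 B cell markers. Of 6 mast cell and basophil markers, 5 were at 0 in every library, and Mcpt8 was above 0 only in MSC KO 2, at 0.118 FPKM. Of 5 measured CD8 and NK cell markers, Ncr1 was at 0 in all 4 libraries, Cd8b1 was at 8.56 and 19.1 FPKM in MSC KO-labelled and 9.75 and 9.75 FPKM in WT libraries, and Cd8a at 0.571 and 0.658 FPKM in MSC KO-labelled and 1.58 and 1.9 FPKM in WT libraries. Klrk1, from the same list, was at 2.17 and 3.59 FPKM in MSC KO-labelled and 1.18 and 1.48 FPKM in WT libraries, apart in the opposite direction to Cd8a. Klrb1c was at 0.0515 and 0.0688 FPKM in the libraries labelled MSC KO and at 0 in WT. The 5 summed to 11.3 and 23.4 FPKM in MSC KO-labelled and 12.5 and 13.1 FPKM in WT libraries. The part of these cell types in the values below was not tested, and fewer cells of a type and less RNA per cell cannot be told apart in bulk RNA.

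The size of the difference varied among the 8 genes, and no test compared the ligand with the receptor chains. Il2 was several-fold higher in both libraries labelled MSC KO, Il21r was higher in both, and Il4ra was apart by more than counting error in the first table alone. The chains that build the IL-2 receptor stayed within 1.21-fold of WT in each table. Small as they were, the differences of Il2ra, Il2rb and Il2rg were beyond counting error in both tables, with opposite signs for Il2ra. Counting error leaves out the spread between replicates. WT 1 stood at 0.953 times WT 2 for Il2ra, 0.992 times for Il2rb and 0.949 times for Il2rg. Of the 8 genes, 0 passed an adjusted p of 0.05 by limma over all genes tested, where 1 gene of 10587 did (0.00945%; the small RNA gene Rnu73b, named after its values were seen); at an unadjusted p under 0.05 there were 3 (Il2, Il21r and Il2rb, all higher), against 9.21% of all genes on the higher side. Both libraries labelled MSC KO lay above both WT libraries for 4 of the 8 genes (26.6% of all genes tested) and below both for 1 (32.5% of all genes). On the log2(FPKM + 1) scale, 3 of the 8 (Il2, Il4ra and Il21r) were at least 2-fold higher in the first table, where 3.51% of all genes were, and 1 (Il2) in the second table, where 2.63% were. In both tables together Il2 was the 1 such gene of the 8, against 1.32% of all genes. The median difference over the 8 genes was 0.2 on the log2(FPKM + 1) scale, 0.3 in the first table alone and 0.06 in the second alone, beside -0.02, -0.0024 and -0.04 over all genes tested.

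**Figure D1:**
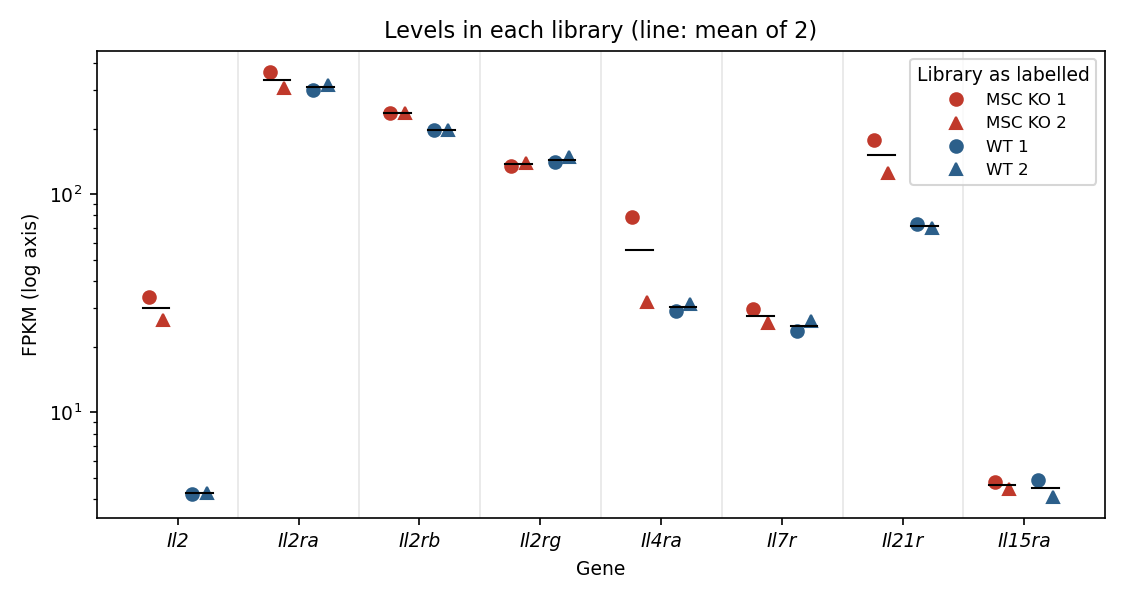
FPKM of the 8 genes on a log axis in each library, MSC KO-labelled in red and WT in blue, with replicate 1 as circles and replicate 2 as triangles and a line at the mean of each pair. Il2 and Il21r are apart between the groups by the widest margins, while Il4ra is high in MSC KO 1 alone at 79.1 FPKM.

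Il2 was at 33.9 and 26.7 FPKM in the libraries labelled MSC KO, against 4.24 and 4.29 FPKM in those labelled WT. The groups did not overlap, and the gap between them was far wider than the gap within either pair. Within the tables the ratio was 7.99 and 6.22. The Il2 gene has 1 annotated transcript of 1144 bp, with which these levels correspond to about 1096 fragments in each MSC KO-labelled library and 125 and 178 in the WT libraries. Counting error alone gave the ratio a 95% interval of 6.65 to 9.71 for the first pair of libraries and 5.3 to 7.32 for the second pair (exact Clopper-Pearson limits). The difference was 2.56 ± 0.13 on the log2(FPKM + 1) scale (SE; 95% interval 2.17 to 2.95), which ranked 64 of 10587 from the highest and was larger in size than that of 99.2% of genes. It did not pass over all genes (adjusted p = 0.1, limma with the table as a block). It passed with no table block (adjusted p = 0.027, limma), a setting in which 0.737% of genes were called higher, and with small RNA genes left out (adjusted p = 0.0427, limma; 0.153% of genes called higher). It also passed without MSC KO 1 (adjusted p = 0.00875, limma) and without MSC KO 2 (adjusted p = 0.00664), where 9.45% and 12.1% of all genes were called higher and the lone library was taken to vary like the WT pair, and did not without WT 1 (0.346; 0% of genes called higher) or WT 2 (0.222; 0.0189%). The authors' deposited table, which tests 1 library against 1, gave Il2 a q of 0.138 for the first pair and 0.124 for the second pair, and called it in neither (0.634% and 0.549% of genes tested were called).

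The promoter of Il2 is shown with those of Il21r and Il4ra, since these are the 3 genes whose level differed most in at least 1 table. RefSeq promoter sequences (GRCm38.p6, a later build than the tables' mm9) matched 7 of the 8 genes by symbol. Each is the 250 bases before the annotated start, 5′ to 3′ on the gene's strand, and capitals mark GGAAA on either strand, the core bound by NFAT, the calcium-regulated factor that drives Il2 in activated T cells, and CANNTG, the E-box bound by basic helix-loop-helix proteins such as musculin.
Il2 (chr3:37125955-37126204, minus strand): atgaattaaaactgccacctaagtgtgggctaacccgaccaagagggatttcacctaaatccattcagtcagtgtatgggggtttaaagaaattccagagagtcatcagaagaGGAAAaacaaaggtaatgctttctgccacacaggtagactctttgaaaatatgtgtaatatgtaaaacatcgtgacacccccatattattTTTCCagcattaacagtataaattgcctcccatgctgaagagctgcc
Il21r (chr7:125603179-125603428, plus strand): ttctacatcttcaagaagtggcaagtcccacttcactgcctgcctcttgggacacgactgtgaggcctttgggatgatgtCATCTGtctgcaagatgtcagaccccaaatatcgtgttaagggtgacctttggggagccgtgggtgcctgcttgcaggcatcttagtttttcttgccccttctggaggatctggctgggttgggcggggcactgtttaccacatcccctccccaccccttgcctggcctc
Il4ra (chr7:125552021-125552270, plus strand): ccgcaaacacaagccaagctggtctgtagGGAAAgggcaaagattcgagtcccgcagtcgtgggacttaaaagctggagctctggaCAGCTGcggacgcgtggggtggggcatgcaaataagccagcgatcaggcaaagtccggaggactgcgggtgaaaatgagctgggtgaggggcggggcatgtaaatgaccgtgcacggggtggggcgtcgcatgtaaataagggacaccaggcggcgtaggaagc
The Il2 window held 2 NFAT cores, starting 137 and 47 bases before the start, and 0 E-boxes. The Il21r window held 1 E-box and 0 NFAT cores, and the Il4ra window 1 of each, with no overlap between the marked motifs. Of 32851 RefSeq promoter windows of this length, 55.6% held GGAAA and 66.2% held CANNTG. The AP-1 motif TGANTCA (in 6.75% of windows) and the STAT motif TTCNNNGAA (in 7.02%), each read the same on both strands, had 0 matches in the 3 windows, which says only that these letters are not there.

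Il21r, the receptor chain for IL-21, was at 177 and 126 FPKM in the libraries labelled MSC KO, against 72.9 and 70.4 FPKM in those labelled WT. The groups did not overlap, and the lower MSC KO-labelled library was still well above the higher WT library. The ratio was 2.43 and 1.79 in the tables, and the log2(FPKM + 1) difference 1.05 ± 0.15 (95% interval 0.6 to 1.5), larger in size than that of 96.1% of genes. It did not pass (adjusted p = 0.14, limma), but did without MSC KO 1 (0.8, adjusted p = 0.0173) and without MSC KO 2 (1.3, adjusted p = 0.00796). It was 1.08 without WT 1 and 1.02 without WT 2. The authors' deposited table gave a q of 0.0883 for the first pair and 0.379 for the second pair.

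Il4ra, the alpha chain of the IL-4 receptor, was at 79.1 and 32.1 FPKM in the libraries labelled MSC KO, against 29.3 and 31.3 FPKM in those labelled WT. MSC KO 1 stood far apart, at 2.47 times MSC KO 2, while MSC KO 2 lay barely above the higher WT library. The ratio was thus 2.7 for the first pair and 1.02 for the second pair. In the second table the counting interval of the ratio was 0.987 to 1.06, and in the first it was 2.6 to 2.8, so the 2 tables differed by more than counting error. The difference of 0.72 ± 0.38 did not pass (adjusted p = 0.385, limma; 95% interval -0.44 to 1.87). Without MSC KO 2 it was 1.36, and without MSC KO 1 it was 0.08. It was 0.67 without WT 1 and 0.76 without WT 2. Il4ra and Il21r are neighbours on chromosome 7 (mm9, 132695767 to 132722988 and 132746942 to 132777084 in the first table), 23953 bp apart, and in the second table Il21r was apart between the groups by 0.83 while Il4ra was apart by 0.03 on the log2(FPKM + 1) scale.

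**Figure D2:**
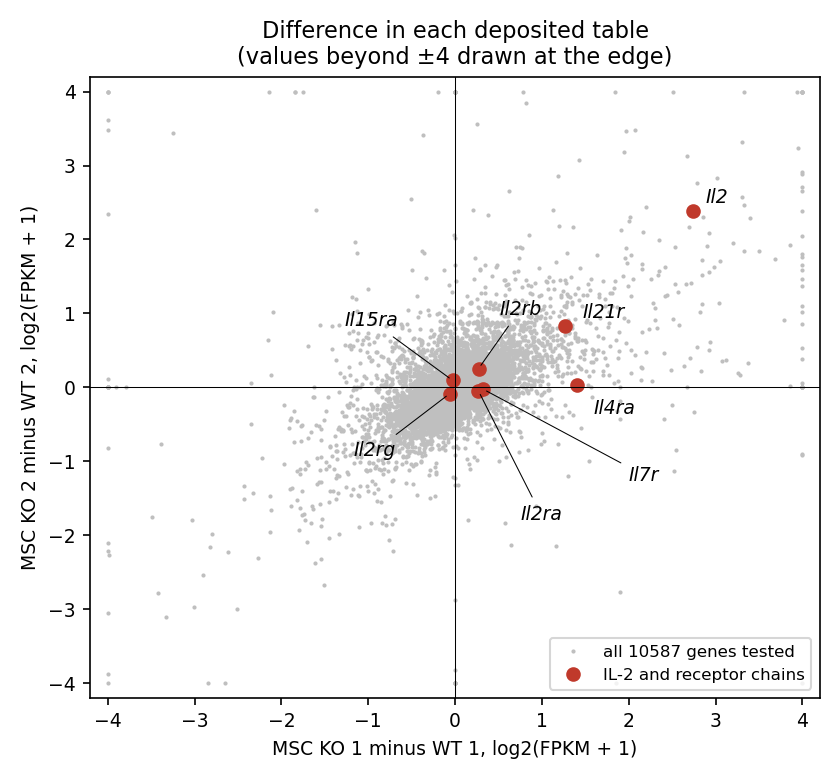
Difference of MSC KO 1 from WT 1 (x axis) and of MSC KO 2 from WT 2 (y axis), both on the log2(FPKM + 1) scale, for all 10587 genes tested in grey and the 8 genes in red. Il2 lies far to the upper right at 2.74 and 2.39, Il21r lies at 1.27 and 0.83, Il4ra lies on the horizontal axis at 1.4 and 0.03, and the other 5 genes lie near the centre.

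The IL-2 receptor chains themselves differed little. Il2ra was at 364 and 307 FPKM in the libraries labelled MSC KO, against 302 and 317 FPKM in those labelled WT, and the groups overlapped, with MSC KO 1 the highest library and MSC KO 2 between the WT libraries. The log2(FPKM + 1) difference had opposite signs in the tables, 0.27 and -0.05, which both became positive under quantile normalization (0.22 and 0.03), and averaged 0.11 ± 0.12 (95% interval -0.25 to 0.47, adjusted p = 0.632, limma); without MSC KO 1 it was -0.012. Il2rb, the beta chain shared with the IL-15 receptor, was at 237 and 236 FPKM in MSC KO-labelled and 197 and 198 FPKM in WT libraries. Each pair was tight, and the groups did not overlap. The ratio of Il2rb was 1.21 and 1.19, and the difference 0.26 ± 0.08 (95% interval 0.0066 to 0.52), which did not pass (adjusted p = 0.24, limma). The Il2rb difference was 0.26 without MSC KO 1, 0.26 without MSC KO 2, 0.25 without WT 1 and 0.27 without WT 2. Il2rg, the common gamma chain, was at 135 and 140 FPKM in MSC KO-labelled and 141 and 148 FPKM in WT libraries, the 1 gene of the 8 for which both libraries labelled MSC KO lay below both WT libraries. That gap was small, with a difference of -0.07 ± 0.09 (95% interval -0.34 to 0.19, adjusted p = 0.663, limma), and 24.5% of all genes had a smaller one.

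Il7r and Il15ra, receptor chains for IL-7 and IL-15, overlapped between the groups. Il7r was at 29.9 and 25.7 FPKM in the libraries labelled MSC KO, against 23.7 and 26.2 FPKM in those labelled WT, with a difference of 0.15 ± 0.13 (95% interval -0.24 to 0.54, adjusted p = 0.558, limma) and opposite signs in the tables (0.32 and -0.02), both positive under quantile normalization (0.29 and 0.02). Without MSC KO 1 it was 0.04. Il15ra was at 4.8 and 4.45 FPKM in MSC KO-labelled and 4.91 and 4.11 FPKM in WT libraries, with a difference of 0.03 ± 0.11 (95% interval -0.29 to 0.36, adjusted p = 0.889, limma) and -0.03 and 0.09 in the tables. Its sign turned under 3 of the 13 alternatives, among them without MSC KO 1 (-0.011) and without WT 2 (-0.072), and at 294 to 370 fragments per library its counting intervals of the ratio spanned 1 in both tables. Il15ra lies 12340 bp from Il2ra on chromosome 2 (mm9), and its level per length was far below that of Il2ra in each library.

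The order of levels per length was Il2ra, Il2rb, Il2rg, Il21r, Il4ra, Il7r, Il15ra and Il2 in the libraries labelled WT, where only the ranges of Il15ra and Il2 overlapped among neighbours. In those labelled MSC KO it was Il2ra, Il2rb, Il21r, Il2rg, Il4ra, Il2, Il7r and Il15ra, and the ranges overlapped between Il21r and Il2rg, between Il4ra and Il2 and between Il2 and Il7r. Among the genes tested, Il2 ranked 2920 by mean level in the libraries labelled MSC KO and 8246 in WT. Il2ra ranked 294 in the libraries labelled MSC KO and 310 in WT. The 7 receptor chains summed to 1027 and 871 FPKM in MSC KO-labelled and 770 and 795 FPKM in WT libraries. Il21r made up 17.3% and 14.4% of that sum in the libraries labelled MSC KO, against 9.47% and 8.85% in WT. Il2rg made up 13.1% and 16% of it, against 18.3% and 18.6% in WT. The sum was larger in both libraries labelled MSC KO, and Il2rg itself was at 0.957 and 0.942 times WT within the tables. Per length, Il21r stood at 1.32 and 0.901 times Il2rg in the libraries labelled MSC KO, against 0.519 and 0.475 times in WT.

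**Figure D3:**
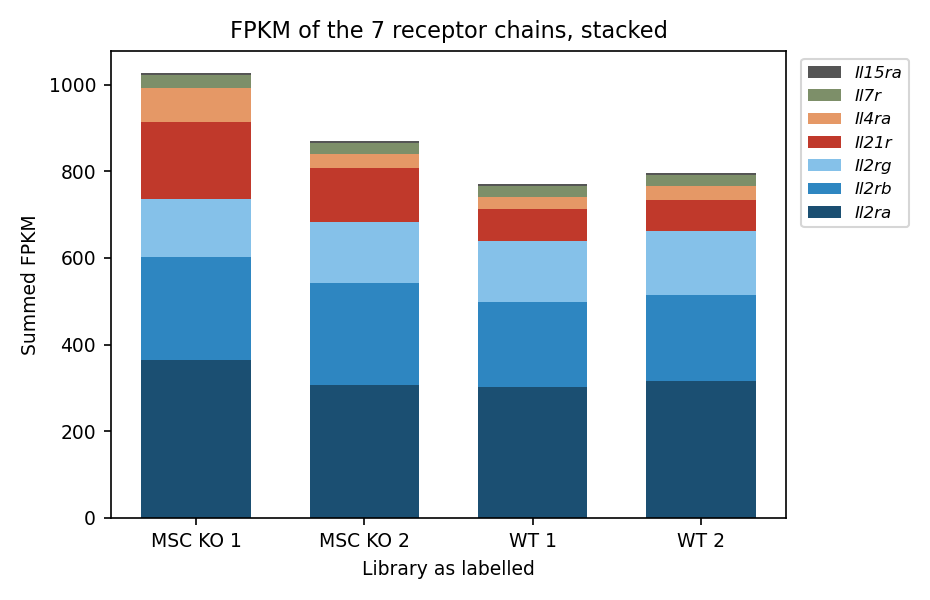
Stacked FPKM of the 7 receptor chains in each library, MSC KO-labelled on the left and WT on the right. The sum is 1027 and 871 FPKM in the libraries labelled MSC KO, above 770 and 795 FPKM in the WT libraries, and the Il21r layer is thicker in both libraries labelled MSC KO than in either WT library.

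Il4, Il9 and Il21, which encode further ligands of common gamma chain receptors, were higher in both libraries labelled MSC KO, while Il7 and Il15 were at or near 0 throughout. Of 9 further ligands and chains, 4 passed the filter on low values and 0 passed by limma (0.00945% of all genes did). Il21 reached the minimum mean of 1 FPKM through the MSC KO-labelled libraries alone, so no count in either direction is read from these 4. Il4, the type 2 cytokine, was at 23.9 and 8.47 FPKM in MSC KO-labelled and 1.71 and 1.46 FPKM in WT libraries (adjusted p = 0.14, limma). Il9 was at 382 and 291 FPKM in MSC KO-labelled and 73.8 and 72.1 FPKM in WT libraries (adjusted p = 0.1), and Il21 at 21 and 1.32 FPKM in MSC KO-labelled and 0.186 and 0.138 FPKM in WT libraries (adjusted p = 0.246). Il21 and its receptor gene Il21r were both highest in MSC KO 1. So were Il2, Il2ra, Il2rb, Il4ra, Il7r, Il4, Il9 and Crlf2, while Il2rg, Il15ra, Il9r, Il13ra1 and Il15 were not. Il9r, the receptor chain for IL-9, was at 0.572 and 1.76 FPKM in MSC KO-labelled and 0.758 and 0.495 FPKM in WT libraries, with overlapping groups. Crlf2, which pairs with the Il7r chain in the receptor for TSLP, was at 63.3 and 44 FPKM in MSC KO-labelled and 53.3 and 52.1 FPKM in WT libraries, with WT between the libraries labelled MSC KO. Il13ra1, which pairs with the Il4ra chain in the type II IL-4 receptor, stayed under 1 FPKM in all libraries (0.392 and 0.401 FPKM in MSC KO-labelled and 0.151 and 0.0896 FPKM in WT libraries). Il15 was at 0 and 0.35 FPKM in MSC KO-labelled and 0.103 and 0.151 FPKM in WT libraries, and Il7 and Tslp were listed at 0 in all 4 libraries.

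Of the kinases and STATs that these receptors use, 0 of 4 with a row of their own passed by limma. Stat5a, which carries the signals of IL-2, IL-7, IL-9 and IL-15, was at 103 and 77.9 FPKM in the libraries labelled MSC KO, against 48.8 and 51.4 FPKM in those labelled WT (0.83 ± 0.16, adjusted p = 0.155, limma). The groups did not overlap for Stat5a, nor for Stat5b, which was at 72.4 and 66.4 FPKM in MSC KO-labelled and 58.6 and 61.1 FPKM in WT libraries (adjusted p = 0.35). Jak1 lay below WT in both tables, at 37.2 and 36.2 FPKM in MSC KO-labelled and 44.4 and 46.4 FPKM in WT libraries (-0.3 ± 0.09, adjusted p = 0.231). Stat6, the STAT of IL-4, was at 54.7 and 59.8 FPKM in MSC KO-labelled and 54.6 and 58 FPKM in WT libraries, with overlapping groups. Jak3, the kinase on the common gamma chain, shares its row with its neighbour Insl3, and that row was at 125 and 104 FPKM in MSC KO-labelled and 86.2 and 78.6 FPKM in WT libraries (adjusted p = 0.169), so that the 2 genes cannot be told apart. The authors' estimate failed for Stat3, the STAT of IL-21, in the first table. In the second table Stat3 was at 177 FPKM in MSC KO 2 against 108 FPKM in WT 2, with 1 library a group and no test of the groups.

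Genes known to be induced by IL-2 or STAT5 in T cells were split. Of 27 listed, 25 were tested and 0 passed by limma. Il10 reached 1 FPKM in the libraries labelled MSC KO alone. Of the other 24 genes 10 were higher and 10 lower in both tables. Of the 10200 genes with a mean of at least 1 FPKM in both groups, 30.4% were higher and 37.8% lower in both tables. The median difference was 0.02 over the 24 genes on the log2(FPKM + 1) scale, beside -0.02 over those 10200. The largest shared differences were those of Foxp3 (a difference of -3.53, adjusted p = 0.115, with its levels given above) and the anti-inflammatory cytokine gene Il10 (39.6 and 10.1 FPKM in MSC KO-labelled and 0.478 and 0.468 FPKM in WT libraries; adjusted p = 0.14). Socs3, a feedback inhibitor of cytokine receptors, was at 80.1 and 38.8 FPKM in MSC KO-labelled and 9.83 and 9.62 FPKM in WT libraries, and Gzmb, the cytotoxic protease granzyme B, at 372 and 180 FPKM in MSC KO-labelled and 63.7 and 67.7 FPKM in WT libraries. Foxp3 lay lower and the other 3 higher in the libraries labelled MSC KO. Cish and Socs1, feedback inhibitors that IL-2 induces through STAT5, differed less. Cish was at 156 and 185 FPKM in MSC KO-labelled and 146 and 152 FPKM in WT libraries. Socs1 was at 256 and 196 FPKM in MSC KO-labelled and 192 and 186 FPKM in WT libraries. Socs2, from the same list, was lower, at 29 and 40.9 FPKM in MSC KO-labelled and 81 and 86.5 FPKM in WT libraries. Its difference was -1.26 ± 0.14 (adjusted p = 0.121, limma). Cish, Socs1 and Socs2 were named after their values were seen.

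Regulators of Il2 transcription were listed by their known action. Of 13 activating factors, all tested, 0 passed by limma. Fos reached a mean of 1 FPKM in the libraries labelled MSC KO alone. Of the other 12 factors, 7 were higher and 2 lower in both tables, beside the 30.4% and 37.8% above. Their median was 0.18, beside -0.02. Fosl2, an AP-1 subunit, was at 29.1 and 16.9 FPKM in the libraries labelled MSC KO, against 4.64 and 4.76 FPKM in WT libraries (2.03 ± 0.23, adjusted p = 0.123, limma). The early response factor Egr1 was at 14.4 and 14.1 FPKM in MSC KO-labelled and 9.35 and 9.54 FPKM in WT libraries, and the AP-1 subunit Fos at 4.04 and 1.82 FPKM in MSC KO-labelled and 0.819 and 1.02 FPKM in WT libraries. Junb, an AP-1 subunit too, was at 538 and 419 FPKM in MSC KO-labelled and 360 and 360 FPKM in WT libraries. The NFAT gene Nfatc1 was at 19.4 and 18.6 FPKM in MSC KO-labelled and 18.7 and 18.1 FPKM in WT libraries, with overlapping groups. Nfatc2 was apart and higher, at 11.8 and 11.7 FPKM in MSC KO-labelled and 9.1 and 10.2 FPKM in WT libraries. Nfatc3 was apart and lower, at 18.4 and 19.8 FPKM in MSC KO-labelled and 20.7 and 23.6 FPKM in WT libraries. These NFAT genes were named after their values were seen. Jun and Nfatc3 were the 2 activating factors lower in both tables. Jun, another AP-1 subunit, was at 17.3 and 30.3 FPKM in MSC KO-labelled and 32.6 and 30.7 FPKM in WT libraries. The log2(FPKM + 1) difference of Jun was -0.87 for the first pair and -0.02 for the second pair. Jun too was named after its values were seen. Of 8 factors listed as repressing, 7 were tested, 3 were higher and 1 lower in both tables, beside the same 30.4% and 37.8% of genes. The median was -0.03, beside -0.02. The one lower in both was Foxp3, with the values above. Higher were the chromatin organizer Satb1 (94.7 and 38.1 FPKM in MSC KO-labelled and 11.1 and 11.6 FPKM in WT libraries; adjusted p = 0.153), the cAMP-responsive factor Crem (77.2 and 54.5 FPKM in MSC KO-labelled and 21.7 and 21.9 FPKM in WT libraries; adjusted p = 0.121) and the zinc finger factor Zeb1 (11.2 and 10.9 FPKM in MSC KO-labelled and 8.42 and 8.93 FPKM in WT libraries; adjusted p = 0.22).

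**Figure D4:**
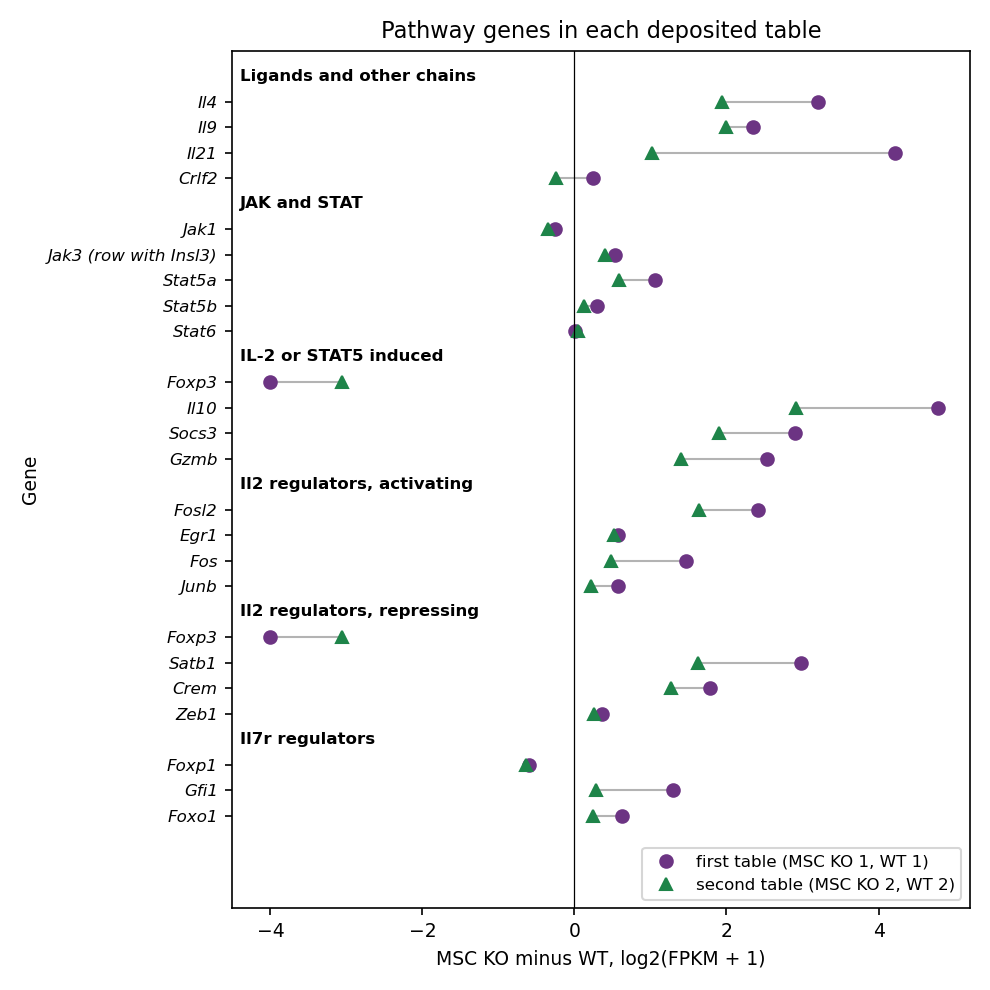
MSC KO minus WT on the log2(FPKM + 1) scale for genes of the pathway, first table as circles and second table as triangles, with Foxp3 shown in both lists that hold it. Fosl2 lies at 2.42 and 1.63, Stat5a at 1.06 and 0.59 and Jak1 at -0.25 and -0.35.

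Of 6 listed regulators of Il7r, 2 were higher and 1 lower in both tables, again beside 30.4% and 37.8% of genes, and 0 passed by limma. Foxo1, which activates Il7r, was at 43.5 and 31.8 FPKM in MSC KO-labelled and 27.8 and 26.8 FPKM in WT libraries. Foxp1, which competes with Foxo1 at Il7r, was at 12.5 and 13.5 FPKM in MSC KO-labelled and 19.5 and 21.5 FPKM in WT libraries (-0.62 ± 0.09, adjusted p = 0.14, limma), and Gfi1, which represses it, at 15.2 and 5.49 FPKM in MSC KO-labelled and 5.55 and 4.35 FPKM in WT libraries. The groups were apart for Foxo1 (higher in the libraries labelled MSC KO) and for Foxp1 (lower), and overlapped for Il7r itself. The part of these regulators in the level of Il7r was not tested.

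The genes nearest in profile were sought for Il2 and Il2rg, the genes of highest and lowest mean difference among the 8, by the Euclidean distance of log2(FPKM + 1) values centred on their mean over the 4 libraries. Nearest to Il2 were Tg, thyroglobulin, at a distance of 0.32, with 23.8 and 24 FPKM in the libraries labelled MSC KO and 2.59 and 2.68 FPKM in WT, Il9 at 0.39, and Hebp1, a heme-binding protein gene, at 0.39. Nearest to Il2rg were Ppp2r2a, a phosphatase subunit gene (0.0086), Drosha, the nuclease of microRNA processing (0.011), and Dctn1, a dynactin subunit gene (0.011). A distance over 4 libraries is a description only.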

How the data were processed

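RNA-seq libraries of induced Treg cells, 2 labelled MSC KO and 2 labelled WT, were deposited by the authors as 2 gene tables, one for each replicate number. TopHat aligned the reads to mm9, per the submitters' processing notes. The TopHat version was not given in the sources used here, nor was the annotation. Values that the authors deposited were read as FPKM from the table layout, and the authors' p-value and q-value were deposited for each gene. Whether the tables were normalized together is not stated. Rows without a symbol (1925 and 2325), date-like symbols (24 per table), 3 symbols at loci that did not overlap and 6 with a failed estimate were left out. The rows without a symbol held 54.1% of the summed FPKM in MSC KO 1 and 49.9% in WT 1. They held 53.2% in MSC KO 2 and 52.2% in WT 2. Of several rows with 1 symbol, the one with the highest mean was kept.

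Values were taken as log2(FPKM + 1) for genes with a mean of at least 1 FPKM and compared in limma 3.58.1 (R 4.3.3), the deposited table entering as a block, with a trended prior (2.35 degrees of freedom beside 1 residual). Tests were two-sided, and p-values were adjusted over all genes by Benjamini-Hochberg at 0.05. The fit was tested on simulated data, whose spread was even and smaller than that of the MSC KO-labelled libraries and of the WT libraries. Its power here was not tested. Adjusted p-values in the text are from this fit. Genes at a mean of 1 FPKM in only 1 group were left out of list counts after values were seen. Differences understate the fold of low genes. Depth was estimated from the smallest step in genes with 1 GENCODE M21 transcript over 2500 bp, in 21 to 47 genes per library. Fragment counts use the longest transcript, and intervals cover counting error only. Groups are called apart where their ranges do not overlap, across tables. Members, lists and the rule for named genes (all 8 genes; further ligands, chains, kinases and STATs; up to 4 genes of each other list with the largest smaller difference of one sign; 3 nearest profiles) were chosen with earlier results of these data known. Alternatives were 9 processing settings and each library left out.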

Additional observations from a re-analysis of the deposited data

How the results depend on the processing

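The number of genes called was 1 as reported. It was 0 with no filter on low values, with quantile normalization or with an untrended prior (2669, 2315 and 2083 genes at an unadjusted p under 0.05), 7 with libraries rescaled to the same sum, 153 with no replicate block and 26 with small RNA genes left out. With 1 library left out it ranged from 0 to 2665, and these fits had no block and took the lone sample to vary like the other group. Of the 8 genes, 0 were called as reported. Among the settings that kept every library, 1 (Il2, at 2.56) was called with no replicate block or with small RNA genes left out. Calls among the 8 genes in fits with a library left out are not part of this count, as the lone sample has no spread of its own. With 1 library left out, their differences ranged from 2.39 to 2.73 for Il2, 0.803 to 1.3 for Il21r and 0.25 to 0.27 for Il2rb. They ranged from 0.0793 to 1.36 for Il4ra, -0.012 to 0.23 for Il2ra and 0.04 to 0.25 for Il7r. The range was -0.11 to -0.04 for Il2rg and -0.072 to 0.14 for Il15ra. Il15ra turned to -0.0018 with libraries rescaled to the same sum, to -0.011 without MSC KO 1 and to -0.072 without WT 2, and Il2ra to -0.012 without MSC KO 1; the cause was not tested. Replicate numbers were not shown to pair the libraries beyond sharing a table (r = 0.06 across genes between deviations of same-numbered libraries). With quantile normalization the second-table difference turned to 0.0286 for Il2ra (-0.0462 as reported) and to 0.0178 for Il7r (-0.023), so that 6 of the 8 genes, and not 4, were higher in both tables. The remaining mean differences of the 8 genes kept their direction. With 1 residual degree of freedom, a p that misses the threshold does not show that levels were alike.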
